A study of Mus musculus with 18 samples.

Results

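The 9 transcription factor genes described here are Trp63, Klf4, Grhl1, Grhl2, Grhl3, Tfap2a, Tfap2c, Cebpa and Cebpb, chosen by symbol as factors known to act in the epidermis. They are 9 of the 55357 genes in the deposited table, and all 9 were among the 17667 genes with at least 10 normalized counts in at least 6 libraries. Bulk RNA of back skin was read in 18 mice of the FVB strain aged 6 months. The groups were 6 C-IKKα mice, which carry added IKKα directed to the cytoplasm of keratinocytes, 6 N-IKKα mice, in which it is directed to the nucleus, and 6 wild-type (WT) mice without a transgene. The promoter that drives the transgene and the number of founder lines are not given in the sources used here.

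These factors form the core of the program that makes and renews the epidermis. p63, the product of Trp63, holds basal keratinocytes in a stratified epithelial fate. KLF4 and the grainyhead-like factors act later, when keratinocytes differentiate and build the skin barrier, and the AP-2 and C/EBP factors link the exit from the basal layer to differentiation. Mouse epidermis needs IKKα, a kinase of NF-kB signalling encoded by Chuk, in order to differentiate. The hair follicle is made of keratinocytes too, and it cycles between growth and rest, so a piece of back skin holds a changing share of follicle cells. In bulk RNA of this kind, fewer cells of a type and less RNA per cell cannot be told apart.

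Some promoter windows of the factors are printed first. The windows of Grhl1, Klf4 and Cebpb were chosen because they held a match to NF-kB letters, as IKKα acts in the NF-kB pathway. Those of Tfap2a were chosen because it differed most with the hair cycle. The windows of Grhl3 and Cebpa and a further window of Grhl1 held no NF-kB match and are not printed. Each window is 300 bases of the mouse build GRCm38.p6 from RefSeq, 250 bases before to 50 bases after a start site, written in the direction of the gene. RefSeq windows were matched for 6 of the 9 genes, 8 windows in all, and none was matched for Trp63, Grhl2 or Tfap2c. Capitals mark the NF-kB letters, GGGA and CC with 4 bases between them, searched on both strands, in the windows of Grhl1 (chr12:24572037-24572336, plus strand), Klf4 (chr4:55532426-55532725, minus strand) and Cebpb (chr2:167688665-167688964, plus strand).
Grhl1: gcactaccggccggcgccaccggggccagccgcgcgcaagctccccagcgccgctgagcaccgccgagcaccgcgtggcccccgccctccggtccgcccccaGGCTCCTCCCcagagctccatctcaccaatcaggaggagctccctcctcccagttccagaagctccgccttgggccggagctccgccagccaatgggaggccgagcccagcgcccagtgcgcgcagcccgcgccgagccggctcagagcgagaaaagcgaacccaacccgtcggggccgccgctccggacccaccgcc
Klf4: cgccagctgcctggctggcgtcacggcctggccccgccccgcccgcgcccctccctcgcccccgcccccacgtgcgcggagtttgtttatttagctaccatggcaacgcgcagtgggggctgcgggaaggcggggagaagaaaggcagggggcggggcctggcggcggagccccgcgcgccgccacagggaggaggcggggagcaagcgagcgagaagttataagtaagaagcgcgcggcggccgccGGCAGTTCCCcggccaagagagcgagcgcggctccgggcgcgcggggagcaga
Cebpb: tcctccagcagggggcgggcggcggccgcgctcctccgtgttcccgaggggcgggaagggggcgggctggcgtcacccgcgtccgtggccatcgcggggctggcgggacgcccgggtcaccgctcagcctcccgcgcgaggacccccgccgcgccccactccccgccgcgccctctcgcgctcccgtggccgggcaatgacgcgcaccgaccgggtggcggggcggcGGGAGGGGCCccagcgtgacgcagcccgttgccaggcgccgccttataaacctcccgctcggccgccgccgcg
The NF-kB letters were in 3 of the 8 windows, and 20.73% of all 32851 promoter windows in the RefSeq table held them. In the Klf4 window they lay across the start site and overlapped a match to the AP-2 letters, GCC and GGC with 3 bases between them. Besides Klf4, Grhl1 held the AP-2 letters, which 16.59% of all windows had. No window held the grainyhead letters (AAC and GTT with 2 bases between), found in 4.204% of all windows, the C/EBP letters (TTGC and AA with 2 bases between), found in 10.797%, or the p53 family letters (CATG and CATG with 6 bases between), found in 0.712%. Such a match describes letters in a window and is not a measured binding site.

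Tfap2a has windows at 2 start sites, at chr13:40734871-40735170 and chr13:40733746-40734045, both on the minus strand. In these, capitals mark the only match of each to the letters CACCC, a core that KLF factors can bind, read on the opposite strand.
Tfap2a start 1: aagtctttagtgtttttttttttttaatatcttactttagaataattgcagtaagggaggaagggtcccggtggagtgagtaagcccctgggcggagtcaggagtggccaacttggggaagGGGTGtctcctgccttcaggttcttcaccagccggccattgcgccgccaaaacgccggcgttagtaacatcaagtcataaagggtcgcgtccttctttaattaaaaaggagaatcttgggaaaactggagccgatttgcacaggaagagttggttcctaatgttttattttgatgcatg
Tfap2a start 2: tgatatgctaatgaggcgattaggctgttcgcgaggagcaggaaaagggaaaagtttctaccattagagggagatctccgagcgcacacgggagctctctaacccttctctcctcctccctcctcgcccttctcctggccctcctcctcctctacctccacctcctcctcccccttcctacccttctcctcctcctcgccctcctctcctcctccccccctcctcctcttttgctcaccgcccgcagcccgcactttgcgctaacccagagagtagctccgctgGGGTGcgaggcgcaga
CACCC was in 6 of the 8 windows and in 57.517% of all windows. Guanine and cytosine made up 75.33% of the printed Grhl1 window, 74.33% of the Klf4 window and 80.67% of the Cebpb window, which held the NF-kB letters. They made up 46.33% (Tfap2a start 1) to 67.33% (Cebpa) of the other windows, with a median of 52.67% over all windows. The NF-kB letters are themselves mostly G and C, and the shares over all windows were not matched for this content.

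Libraries held 11.1 to 15.7 Mreads (megareads), and each read counted as 0.816 to 1.20 normalized counts, which put at least 91 reads behind every factor in every library. Markers of the labelled tissue were present in all libraries. The summed level of 6 basal keratinocyte genes was 62278 to 86521 normalized counts in C-IKKα, 41482 to 82528 in N-IKKα and 54756 to 80010 in WT skin. Skeletal muscle genes also summed to 13091 to 161299 over the 18 libraries, and all 8 of them were detected. Hair shaft and inner root sheath genes divided the libraries into 6 with a mean log2 level of 8.95 to 11.3 and 12 with 1.30 to 4.30, here called growing-hair and resting-hair libraries. Growing-hair libraries were C-IKKα 14, N-IKKα 8, 9 and 11, and WT 1 and 4, and all 6 came from mice that read as female from Ddx3y. Of the 12 resting-hair libraries, 8 read as male, of which 4 were C-IKKα, 2 N-IKKα and 2 WT. Chuk, the gene of IKKα, averaged 889 ± 26.3 normalized counts in C-IKKα, 990 ± 93.3 in N-IKKα and 1007 ± 147 in WT skin (SD, n = 6 each), so it did not mark the transgenic libraries. Whether reads of the transgene were counted under Chuk is not stated.

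The table lists the factors as Trp63 (ENSMUSG00000022510.15, chromosome 16), Klf4 (ENSMUSG00000003032.9, chromosome 4), Grhl1 (ENSMUSG00000020656.17, chromosome 12), Grhl2 (ENSMUSG00000022286.17, chromosome 15), Grhl3 (ENSMUSG00000037188.8, chromosome 4), Tfap2a (ENSMUSG00000021359.17, chromosome 13), Tfap2c (ENSMUSG00000028640.12, chromosome 2), Cebpa (ENSMUSG00000034957.11, chromosome 7) and Cebpb (ENSMUSG00000056501.4, chromosome 2). Levels differed widely among the 9 genes. Per kilobase of exon, over the 18 libraries, Cebpa and Klf4 had the highest medians, 1400 and 1368 normalized counts per kb, with overlapping ranges of 929 to 1750 and 886 to 2074. Trp63 followed at 884 (range 786 to 1079), and Grhl1 at 613 (532 to 1001.2). Tfap2a, at 326 (246 to 676), overlapped with Tfap2c at 283 (219 to 330), and that with Grhl3 at 219 (171 to 290). Cebpb, at 179 (70.7 to 269), and Grhl2, at 132 (117 to 203), were the lowest and overlapped as well. Among neighbours in this order, the ranges of Trp63 and Klf4 overlapped, those of Trp63 and Grhl1 overlapped, and those of Grhl1 and Tfap2a overlapped.

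**Figure D1:**
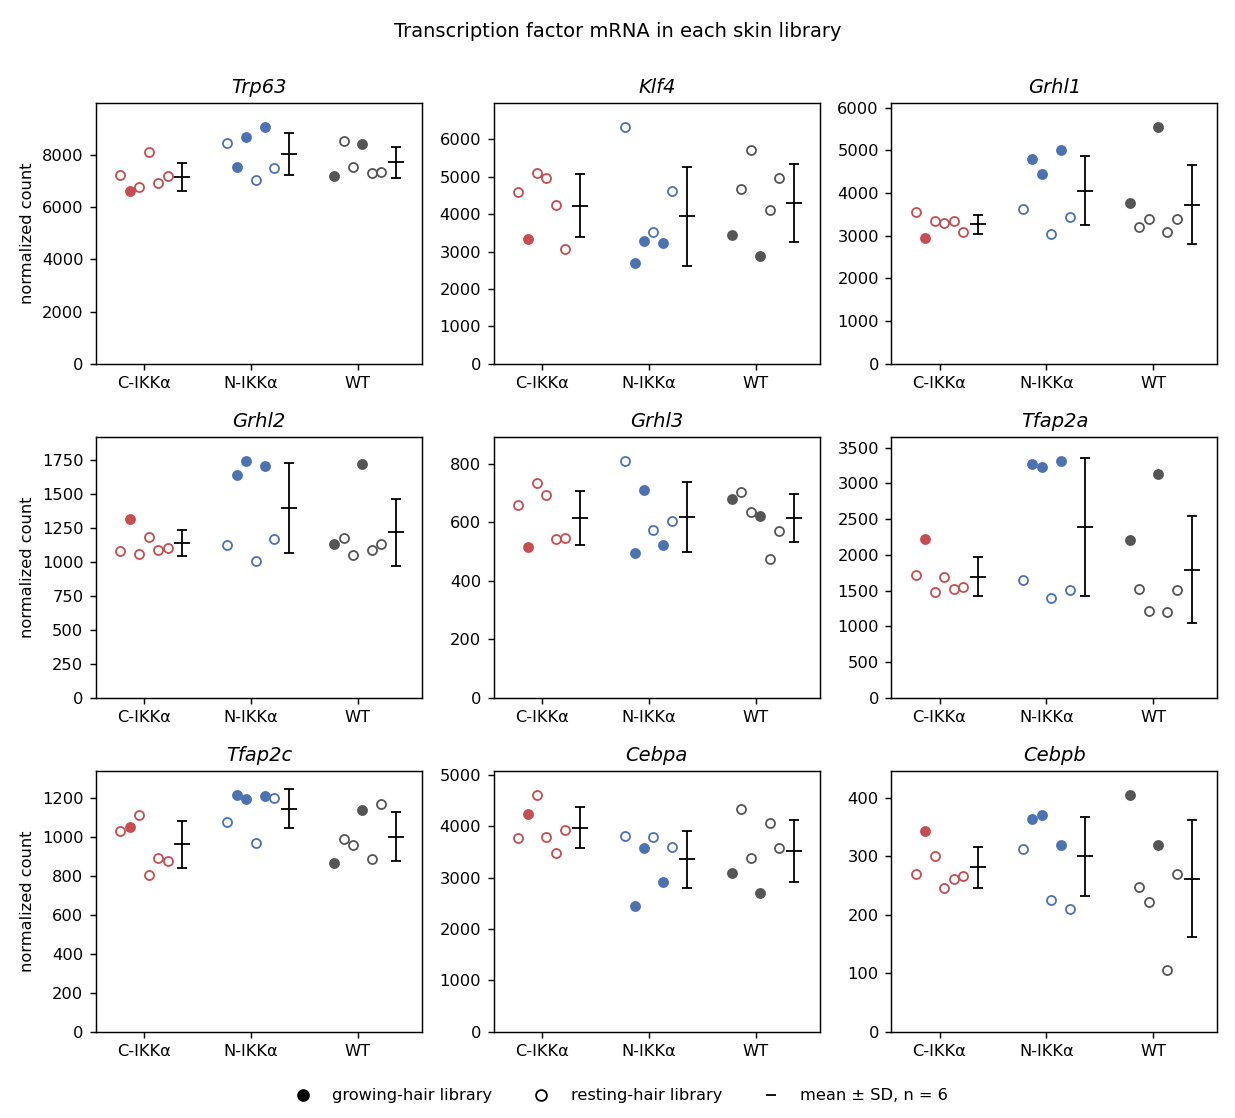
Normalized count (vertical axes, from 0) of the 9 factors in each library of C-IKKα, N-IKKα and WT skin; filled points are growing-hair libraries, open points resting-hair libraries, and bars the mean ± SD of 6 libraries. The groups overlap for every factor, while the filled points of Tfap2a (2202 to 3313) all lie above the open ones (1206 to 1712).

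The first question of the design is whether cytoplasmic IKKα changed skin RNA relative to WT. Among the 9 factors, none differed between C-IKKα and WT skin at a Benjamini-Hochberg adjusted p below 0.05 in limma, the threshold used throughout. At an unadjusted p below 0.05 in limma there was also none of 9, where 5.73% of all genes were below it. Of all genes tested, 0.345% passed the adjusted threshold in limma. On the recovered reads, edgeR and DESeq2 found 0 of the 9 each at both thresholds. An unadjusted p below 0.05 was found for 1077 genes in edgeR and 1269 in DESeq2. Past the adjusted threshold, edgeR had 55 genes higher and 0 lower of 17667, and DESeq2 had 136 higher and 15 lower of 16974. Log2 fold changes were positive for 3 factors and negative for 6, with a median of -0.02, against 0.0003 for all genes tested. The groups overlapped for all 9 factors, and 0.985% of all genes had groups that did not overlap.

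Trp63 had the narrowest limits. It read 6599 normalized counts at the lowest, 7062 at the median and 8096 at the highest in C-IKKα skin, against 7168, 7435 and 8523 in WT skin. Its log2 fold change was -0.11 with 95% limits of -0.28 to 0.06, which is a fold between 0.823 and 1.04. Cebpb had the highest upper limit and Tfap2a the lowest lower one, so the 95% limits of the 9 factors lay between folds of 0.680 and 1.63. Klf4 ranged from 3074 to 5101 (median 4410) in C-IKKα and from 2886 to 5704 (median 4390) in WT skin. Cebpa, which promotes the exit of keratinocytes from the cell cycle, ranged from 3486 to 4613 (median 3861) in C-IKKα and from 2695 to 4332 (median 3489) in WT skin. The log2 fold changes were -0.02 for Klf4, 0.18 for Cebpa, 0.20 for Cebpb, -0.006 for Tfap2a and -0.06 for Tfap2c. For the grainyhead-like genes they were -0.16 for Grhl1, -0.08 for Grhl2 and 0.0009 for Grhl3.

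Nuclear IKKα was compared with WT in the same way. None of the 9 factors passed the adjusted threshold or an unadjusted p of 0.05 between N-IKKα and WT skin in limma, edgeR or DESeq2. Over all genes tested 0.00566% passed the adjusted threshold and 4.14% the unadjusted one in limma. The unadjusted one was passed by 899 of 17667 genes in edgeR and 1070 of 17660 in DESeq2. Past the adjusted one, edgeR had 1 gene higher and 0 lower, and DESeq2 had 1 higher and 1 lower. Of the factors 7 had a positive and 2 a negative log2 fold change, and their median was 0.13, with 0.006 for all genes. Tfap2c, the gene of AP-2 gamma, had the smallest p. It read 967 at the lowest, 1195 at the median and 1213 at the highest in N-IKKα skin, against 866, 972 and 1169 in WT skin. The log2 fold change of Tfap2c was 0.20, with limits of -0.01 to 0.40 and an adjusted p of 0.880 in limma. Tfap2a had the widest limits, -0.15 to 0.95, a fold between 0.902 and 1.93. It ranged from 1392 to 3313 (median 2440) in N-IKKα and from 1206 to 3131 (median 1511) in WT skin, and both groups held high and low libraries. Other log2 fold changes were 0.06 for Trp63, -0.15 for Klf4, 0.13 for Grhl1, 0.19 for Grhl2, 0.002 for Grhl3, -0.07 for Cebpa and 0.27 for Cebpb. The 95% limits of the 9 factors lay between folds of 0.672 and 1.93.

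Set directly against each other, the transgenic groups again gave no factor past the adjusted threshold, where 0.43% of all genes passed. By unadjusted p, 1 of the 9 factors fell below 0.05 in limma and 3 in each of edgeR and DESeq2, with 11.7% of all genes below 0.05 in limma, 12.6% in edgeR and 15.1% in DESeq2. In limma the factor was Tfap2c, and edgeR and DESeq2 added Trp63 and Grhl1. Tfap2c averaged 1142 ± 100.6 normalized counts in N-IKKα and 960 ± 120 in C-IKKα skin (SD, n = 6 each), a log2 fold change of 0.25 with limits of 0.05 to 0.46 and an adjusted p of 0.389 in limma. The 3 growing-hair N-IKKα libraries read 1213, 1194 and 1209, and the resting N-IKKα 12 was as high, at 1197. The highest C-IKKα library read 1113, within the range of the N-IKKα group. The groups overlapped for all 9 factors, and did not for 1.05% of all genes. Grhl1 ranged from 3036 to 5012 (median 4034) in N-IKKα and from 2945 to 3557 (median 3325) in C-IKKα skin. The log2 fold changes of the other factors were 0.17 for Trp63, -0.13 for Klf4, 0.29 for Grhl1, 0.26 for Grhl2, 0.0009 for Grhl3, 0.41 for Tfap2a, -0.25 for Cebpa and 0.07 for Cebpb. In this comparison 7 of the 9 log2 fold changes were positive with a median of 0.17, and the median of all genes was 0.006. Here the limits lay between folds of 0.679 and 1.94. Growing-hair libraries were 3 of 6 in N-IKKα and 1 of 6 in C-IKKα skin, and all 20 tested hair shaft genes had a positive log2 fold change, with a median of 2.57 and none past the threshold. All comparisons share groups, so their fold changes are not independent of one another.

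**Figure D2:**
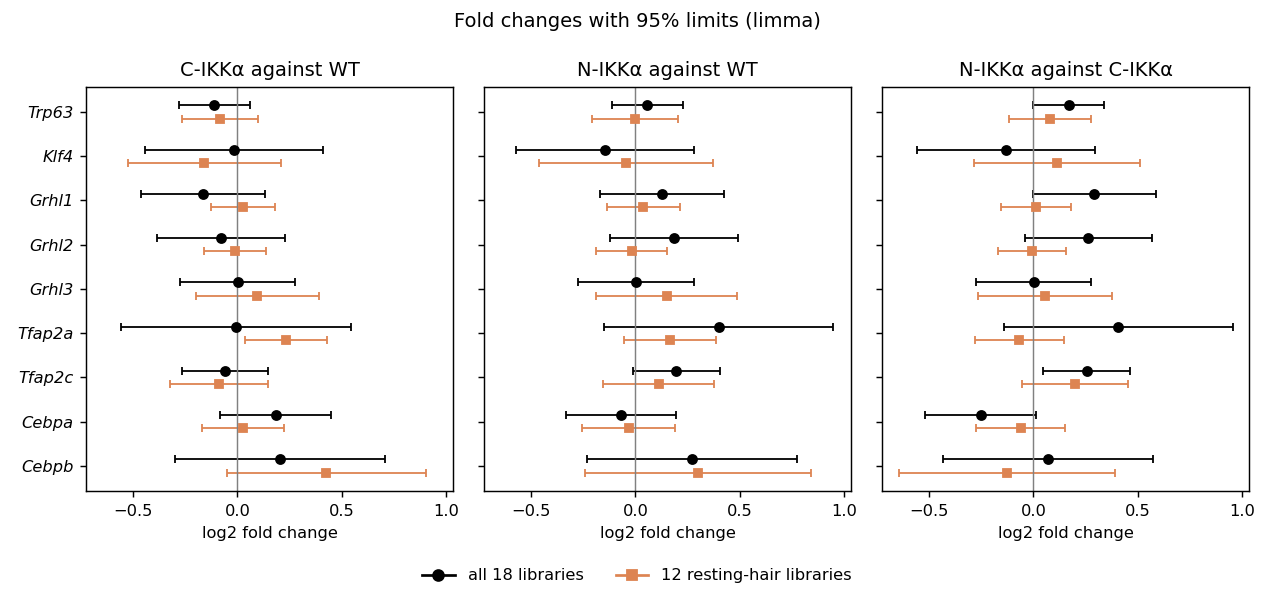
Log2 fold change of each factor with 95% limits from limma (horizontal axes), in C-IKKα against WT, N-IKKα against WT and N-IKKα against C-IKKα; black points use all 18 libraries and orange squares the 12 resting-hair libraries. Over all 18 libraries the limits of every factor but Tfap2c in the last panel cross 0, and the N-IKKα values of Tfap2a, Grhl1 and Grhl2 lie nearer to 0 without the growing-hair libraries.

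Without the growing-hair libraries, 5 C-IKKα, 3 N-IKKα and 4 WT libraries were left. Again none of the 9 factors passed the adjusted threshold in any of the 3 comparisons, where 0.966%, 0.0118% and 0.259% of all genes did (C-IKKα against WT, N-IKKα against WT, N-IKKα against C-IKKα). Tfap2a was then the only factor of the 9 with an unadjusted p below 0.05, in C-IKKα against WT, where 2151 of 16985 genes were below it. Its resting C-IKKα libraries read 1712, 1485, 1687, 1517 and 1547, against 1519, 1209, 1206 and 1503 in resting WT libraries. The lower pair of WT libraries stood below all C-IKKα ones, and the upper pair within them. That gave a log2 fold change of 0.23 with limits of 0.04 to 0.43 and an adjusted p of 0.301 in limma. Over all 18 libraries the same comparison had given -0.006. Of the resting libraries, 4 of 5 in C-IKKα and 2 of 4 in WT skin read as male, and the part of sex in these resting values was not tested. In N-IKKα against C-IKKα, Tfap2a moved to -0.07 without the growing-hair libraries, against 0.41 with them, Grhl1 to 0.01 against 0.29, and Grhl2 to -0.007 against 0.26.

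By hair state, 2 of the 9 factors, Tfap2a and Cebpb, had levels that did not overlap, as did 13.7% of all genes tested. Hair state was read from these same libraries, so its values are given as ranges with no test. Tfap2a, the gene of AP-2 alpha, read 3268, 3227 and 3313 normalized counts in the growing N-IKKα libraries, 3131 and 2202 in the growing WT libraries and 2219 in the growing C-IKKα library. In the 12 resting-hair libraries it ranged from 1206 to 1712 (median 1514). All 6 growing-hair libraries lay above all resting ones, in each of the 3 groups. Of all genes tested, 8.45% were likewise higher without overlap and 5.25% lower. Restricted to mice that read as female, the range was 2202 to 3313 in the 6 growing and 1206 to 1547 in the 4 resting libraries.

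Cebpb, the gene of a C/EBP factor induced early in differentiation, was the other factor whose hair states did not overlap. It ranged from 319 to 405 (median 353) in growing-hair and from 106 to 312 (median 254) in resting-hair libraries. The gap was small: N-IKKα 11 read 319 and the resting N-IKKα 7 read 312. WT 5 had the lowest level, 106, and the next lowest resting library read 210. Females alone gave 319 to 405 in growing and 106 to 266 in resting libraries. Exons of Cebpb share 312 bases, 20.74% of its exon length, with Tmem189 on the opposite strand, which read 129 to 517. As the strand setting of the counting is not given, the level of Cebpb is uncertain to that extent. Antisense transcripts that overlap exons of Tfap2a and Cebpa read at most 8.24 and 36.9.

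Grhl1 and Grhl2, which in mouse regulate desmosome and junction genes, were higher in most growing-hair libraries. Grhl1 read 4801, 4447 and 5012 in the growing N-IKKα libraries and 3759 and 5546 in the growing WT ones, all 5 above the resting range of 3036 to 3621. The growing C-IKKα 14 read 2945, below that range. For Grhl2 the growing libraries read 1641, 1746 and 1711 in N-IKKα, 1137 and 1720 in WT, and 1322 in C-IKKα skin. Of these, 5 lay above the resting range of 1005 to 1188, and WT 1 lay within it. Grhl2 shares 169 exonic bases, 1.96% of its exon length, with Gm16136 on the opposite strand, which read 560 to 841. In resting skin Grhl1 and Grhl2 were even. Their SD of log2 values over the 12 libraries was 0.08 for Grhl1 and 0.07 for Grhl2. Of the 9909 genes with a mean of at least 200, 3.86% and 1.998% varied less.

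Grhl3, needed for barrier formation in the mouse embryo, did not follow its relatives. It ranged from 495 to 712 (median 571) in growing-hair and from 476 to 809 (median 618) in resting-hair libraries, with all growing values inside the resting range. Tfap2c ranged from 866 to 1213 in growing-hair and from 805 to 1197 in resting-hair libraries, and 2 growing libraries stood just above. Trp63 was likewise similar in range, 6599 to 9058 in growing-hair and 6772 to 8523 in resting-hair libraries. Over all 18 libraries Trp63 had an SD of 0.13 on the log2 scale, and 10.5% of the genes with a mean of at least 200 varied less.

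Cebpa and Klf4 had lower medians in growing-hair libraries. Cebpa read 2450, 3584 and 2925 in the growing N-IKKα libraries, 3101 and 2695 in WT, and 4240 in C-IKKα skin, against 3390 to 4613 in resting-hair libraries. Thus 4 of 6 growing libraries lay below the resting range, while N-IKKα 9 and C-IKKα 14 lay within it. Klf4 ranged from 2702 to 3433 (median 3250) in growing-hair and from 3074 to 6323 (median 4648) in resting-hair libraries, with 2 growing libraries below that range. Within resting skin Klf4 ranged from 3074 to 4682 (median 3806) in 4 females and from 4241 to 6323 (median 4974) in 8 males, which overlapped. Cebpa ranged from 3804 to 4332 (median 3994) in the 4 resting females. All 6 growing-hair libraries read as female, and the part of sex in these values was not tested. Grhl1 was the only factor whose sexes did not overlap within resting skin, at 3036 to 3216 in females and 3310 to 3621 in males, as was seen for 3.06% of all genes.

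**Figure D3:**
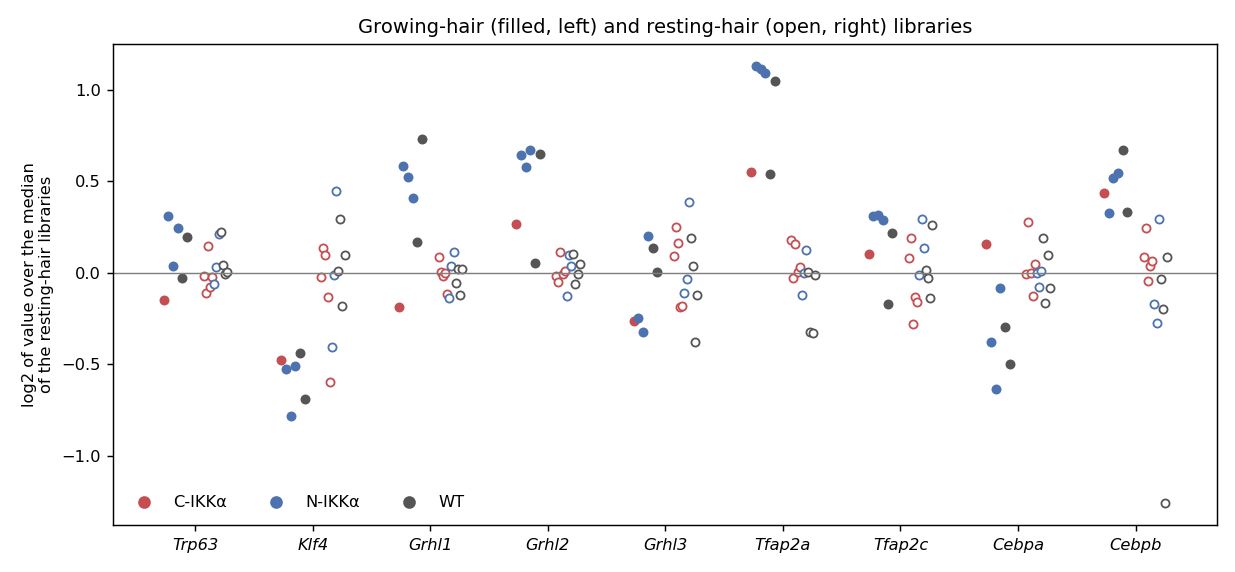
Log2 of each library's value over the median of the resting-hair libraries (vertical axis) for the 9 factors; filled points on the left of each pair are the 6 growing-hair libraries, open points on the right the 12 resting-hair libraries, coloured by group. All filled points lie above all open points for Tfap2a and Cebpb, 5 of 6 do for Grhl1 and Grhl2, and those of Klf4 all lie below the resting-hair median.

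Some other cell markers moved with hair state, where 8.45% of all genes tested were higher without overlap in growing-hair libraries and 5.25% lower. The summed level of 5 melanocyte genes was 4083 to 13064 normalized counts in growing-hair and 338 to 2122 in resting-hair libraries, with 4 of the 5 genes not overlapping. Basal keratinocyte genes summed to 41482 to 66893 in growing-hair and 61190 to 86521 in resting-hair libraries, and 3 of 6 were lower without overlap, Krt15, Col17a1 and Itgb4. T cell genes summed to 131 to 267 in growing-hair and 451 to 652 in resting-hair libraries, with 2 of 6 lower without overlap. Fibroblast genes summed to 28446 to 69807 in growing-hair and 44107 to 404628 in resting-hair libraries, with 2 of 6 lower without overlap. Adipocyte genes summed to 7118 to 19841 in growing-hair and 11292 to 23553 in resting-hair libraries, and all 8 overlapped. None of the genes of these lists was at 0 in every library. Of 13 differentiated keratinocyte genes tested, 2 were higher without overlap, Sprr1a and Tgm3, and 1 was lower, Krt10. Of 6 endothelium genes 1 was lower without overlap. All tested genes of the sebaceous gland, skeletal muscle, macrophage and neutrophil lists overlapped. The part of these cell types in the levels of the 9 factors was not tested.

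Within the families, the share of 1 member was apart between hair states only in the AP-2 pair, and there by a narrow gap. No test was run on these shares. Per kilobase of exon, Grhl1 made up 59.9% to 70.3% of the grainyhead-like total over all libraries. The share of Grhl3 was 14.4% to 23.1% (median 17.9%) in growing-hair and 19.99% to 27.0% (median 23.6%) in resting-hair libraries, which overlapped, as did the shares of Grhl1 and Grhl2. Of the AP-2 pair, Tfap2a held 61.35% to 67.4% in growing-hair and 48.6% to 61.14% in resting-hair libraries, with no overlap but by a small margin. For the C/EBP pair, Cebpa held 79.4% to 87.6% in growing-hair and 87.5% to 95.6% in resting-hair libraries, which overlapped by a small margin. These shares use exon lengths of the GENCODE vM21 annotation, which may differ from the one used for counting.

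**Figure D4:**
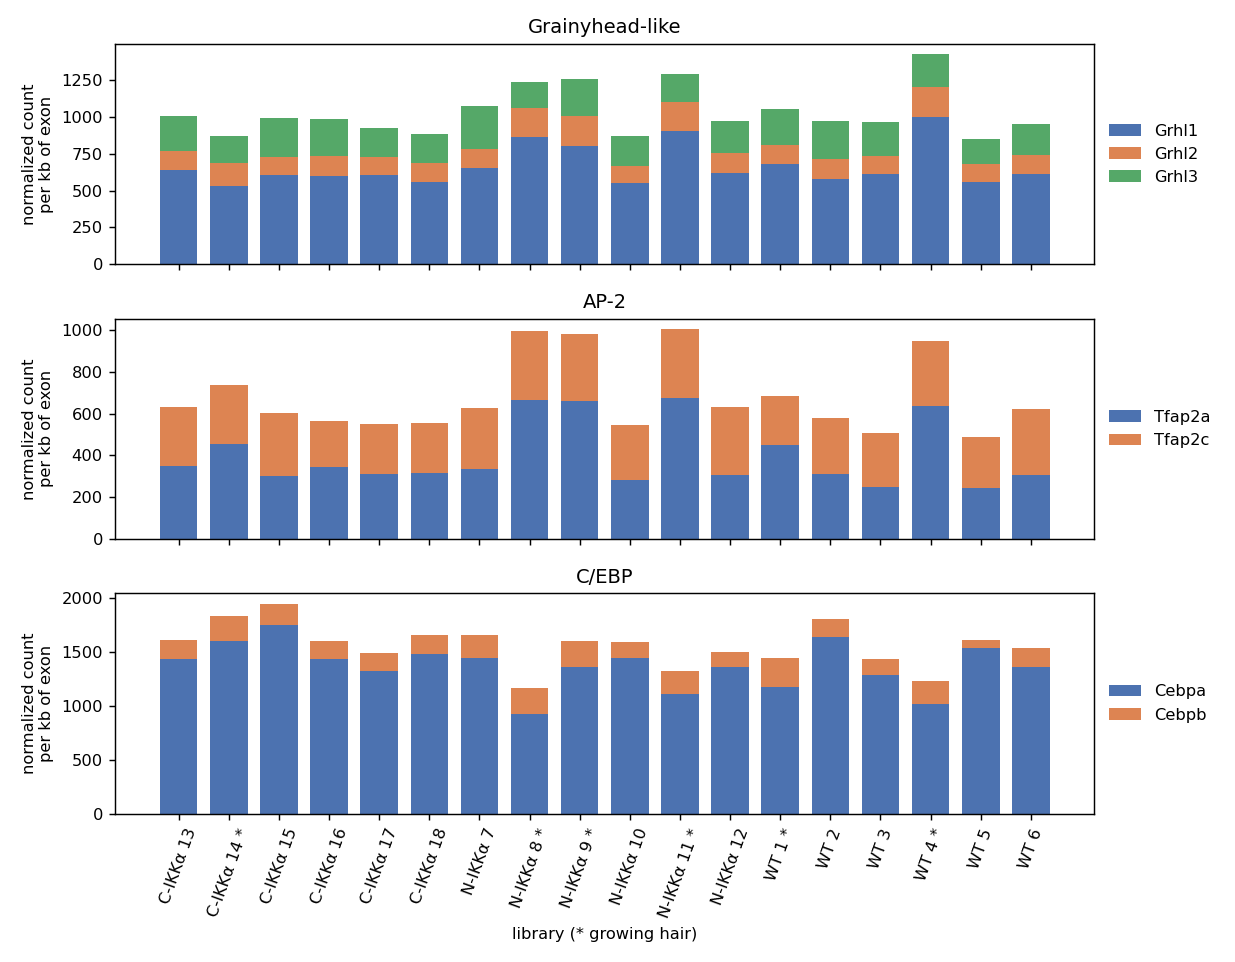
Normalized count per kilobase of exon (vertical axes, from 0) of the grainyhead-like, AP-2 and C/EBP genes stacked for each library, with growing-hair libraries marked by a star. The growing N-IKKα libraries and WT 4 have the tallest AP-2 bars, with Tfap2a at 61.3% to 67.4% of the pair in all growing-hair libraries.

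Genes with the most similar pattern were sought for the 3 factors whose highest library was more than 2 times the lowest, among 12593 genes and over the 18 libraries. Likeness was the root mean square difference of log2 values centred on each gene's mean. For Tfap2a it was 0.11 to Notch1, the gene of a receptor that drives spinous differentiation, and 0.12 to Ptk7, against a root mean square of 0.48 for Tfap2a about its own mean. Notch1 read 2123 to 3611 in growing-hair and 1366 to 2006 in resting-hair libraries. Klf4 was nearest to Snx21 (0.13) and Slc6a8 (0.15), with 0.35 about its own mean. Snx21 read 438 to 569 in growing-hair and 604 to 841 in resting-hair libraries. Cebpb was nearest to Sf3a2 (0.20) and Pabpc1 (0.21), with 0.42 about its own mean, a looser likeness than that of the other two.

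Further factors of the epidermis were read from a list of 29, of which 27 could be tested. In C-IKKα against WT, 1 rose and none fell past the threshold, with a list median of -0.03 against 0.0003 for all genes. Of all genes tested, 0.345% passed in limma. The factor of the list that passed was Trp73, the gene of p73, a relative of p63. Trp73 read 811 at the lowest, 924 at the median and 1174 at the highest in C-IKKα skin, against 363, 551 and 749 in WT skin, and the groups did not overlap. N-IKKα skin lay between and overlapped with both, at 526, 736 and 826. The log2 fold change in C-IKKα against WT was 0.76 (SE 0.15) with an adjusted p of 0.0349 in limma, 0.0482 in edgeR and 0.00141 in DESeq2. That call was lost in a fit of C-IKKα and WT alone (adjusted p = 0.0616), without the growing-hair libraries (0.0572) and without any 1 of the 6 C-IKKα libraries or of WT 1, 3, 4 or 5, while the log2 fold change stayed between 0.65 and 0.85 in limma with a library left out.

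In N-IKKα against WT and N-IKKα against C-IKKα, none of the 27 factors passed the adjusted threshold. Of all genes tested, 0.00566% and 0.43% did in limma. Where 4.14% and 11.7% of all genes had an unadjusted p below 0.05, so did 1 and 4 of the 27 factors. The smallest p was that of Tfap2b, another AP-2 gene, in N-IKKα against WT, at 3305 ± 619 in N-IKKα and 2497 ± 417 normalized counts in WT skin (log2 fold change 0.40, adjusted p = 0.880 in limma). For N-IKKα against C-IKKα it was that of Maf, at 5809 ± 1034 in N-IKKα and 4450 ± 459 in C-IKKα skin (log2 fold change 0.37, adjusted p = 0.295 in limma). Over the 12 resting-hair libraries alone, 2 other factors of the list, named after their values were seen, passed the threshold in C-IKKα against WT. Of all genes tested in that fit, 0.966% passed it in limma. Junb, an AP-1 subunit, ranged from 1023 to 1334 in 5 C-IKKα libraries and from 608 to 940 in 4 WT libraries (log2 fold change 0.65, adjusted p = 0.0192 in limma). Ehf, an epithelial ETS factor, ranged from 468 to 825 in C-IKKα and from 273 to 392 in WT libraries (log2 fold change 0.995, adjusted p = 0.0231 in limma). Over all 18 libraries both were far from the threshold, with an adjusted p of 0.985 each in limma. The resting groups differed in sex, with 4 of 5 males in C-IKKα and 2 of 4 in WT, and the part of sex in these values was not tested.

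By hair state, 9 of the 27 were higher in all growing-hair libraries than in all resting ones, and none was lower without overlap, where 8.45% of all genes tested were higher and 5.25% lower. They included Ovol1, Hopx, Prdm1, Vdr, Maf, Dlx3, Msx2 and Junb. Msx2 and Dlx3, homeobox factors of the hair matrix and shaft, had the widest separation. Dlx3 read 3623 to 9187 in growing-hair and 318 to 750 in resting-hair libraries. Msx2 read 1019 to 2492 in growing-hair and 74.0 to 203 in resting-hair libraries. Vdr, the vitamin D receptor gene that the mouse hair cycle needs, read 5062 to 9057 in growing-hair and 2457 to 4010 in resting-hair libraries. Zfp750 and Elf3, the other 2 of the 29, were not among the genes tested.

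**Figure D5:**
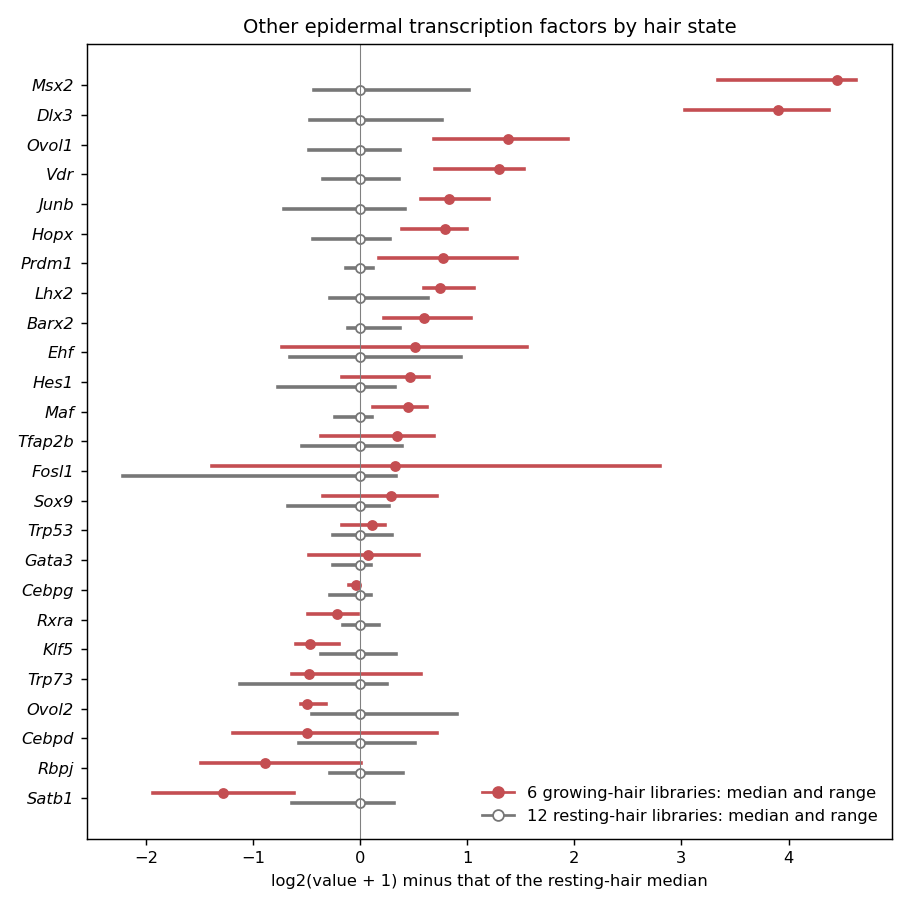
Median (point) and range (line) of log2(normalized count + 1) relative to the resting-hair median (horizontal axis) for 25 of the 27 other epidermal factors tested, in 6 growing-hair libraries (red, upper) and 12 resting-hair libraries (grey, lower). Msx2 and Dlx3 stand farthest to the right, and 8 of the 25 drawn do not overlap.

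Known targets of p63 and of the grainyhead-like factors were counted from lists of 15 and 13 genes. Neither list had a gene past the threshold in any of the 3 comparisons. For the p63 list the median log2 fold changes were -0.07 in C-IKKα against WT, 0.04 in N-IKKα against WT and 0.15 in N-IKKα against C-IKKα. In the comparisons with WT its smallest p was that of Chuk for C-IKKα, with an adjusted p of 0.948 in limma, and that of Krt14 for N-IKKα, with an adjusted p of 0.880. For the grainyhead list the medians were -0.10, 0.17 and 0.22 in the same order. Tgm5, a transglutaminase of the cornified layer, had the smallest p of that list in C-IKKα against WT, at 540 ± 119 in C-IKKα and 324 ± 94.6 in WT skin (log2 fold change 0.76, adjusted p = 0.471 in limma).

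Between hair states, 6 of the 15 p63 targets and 2 of the 13 grainyhead targets did not overlap, as did 13.7% of all genes tested. Of the p63 targets, Sfn, Jag1, Fras1 and Dlx3 were higher in growing-hair libraries without overlap, and the adhesion genes Dst and Itgb4 were lower. Jag1, a Notch ligand, read 2949 to 4308 in growing-hair and 1659 to 2375 in resting-hair libraries. Dst, which anchors keratin to hemidesmosomes, read 7065 to 9813 in growing-hair and 14039 to 21143 in resting-hair libraries. The grainyhead targets without overlap were both higher in growing-hair libraries. Spint1, a protease inhibitor of epithelial surfaces, read 560 to 1268 in growing-hair and 255 to 399 in resting-hair libraries. Arhgef19 read 425 to 581 in growing-hair and 176 to 395 in resting-hair libraries. The other 11 overlapped.

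The differentiation markers gave 1 gene past the threshold among 13 tested. It passed in C-IKKα against WT, where 0.345% of all genes tested did in limma. Krt2, a keratin of the upper spinous and granular layers, read 46.6 at the lowest, 81.6 at the median and 162 at the highest in C-IKKα skin, against 14.1, 23.3 and 36.3 in WT skin, without overlap. Its log2 fold change was 1.79 (SE 0.35) with an adjusted p of 0.0244 in limma. In a fit of both groups alone the adjusted p was 0.0658, and without C-IKKα 13, 16 or 17 or WT 2, 3, 5 or 6 it was 0.0580 to 0.0952. In N-IKKα against WT and N-IKKα against C-IKKα no differentiation marker passed. Of the marker lists for hair shaft, basal keratinocytes, sebaceous gland, adipocytes, fibroblasts, endothelium, melanocytes, skeletal muscle, macrophages, neutrophils and T cells, no gene passed the threshold in any of the 3 comparisons.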

How the data were processed

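Per the labels' protocols, back-skin RNA was isolated with TRIzol and cleaned on MinElute columns, and libraries from a stranded mRNA kit were read paired-end on a NovaSeq instrument. Reads were counted with featureCounts on GRCm39, per the submitters' processing notes. The sources used here do not give versions, the aligner, the annotation or the strand setting. The authors deposited a signal for each gene in each library, a normalized count: 100% of the non-zero deposited values were whole multiples of 1 step per library within 0.001 reads, so they were read as counts divided by 1 size factor per library. A value of 0 allows up to 3 counts, or 2.45 to 3.61 normalized counts, counting error only. No 2 libraries agreed within sampling noise.

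Genes with at least 10 normalized counts in at least 6 libraries were tested with limma 3.58.1 (R 4.3.3; mean-variance trend) on log2(normalized count + 1), all 18 libraries in 1 fit, with Benjamini-Hochberg adjustment over 17667 genes. Fold changes are on that scale. Each library is a separate mouse by its title, so p-values measure the spread between mice. edgeR 4.0.16 and DESeq2 1.42.0 were run on the recovered counts, beside alternatives in pseudocount, filter, scaling, moderation, weights, covariates and left-out libraries. The fit was also run on simulated counts that held no hair state or sex differences, so its behaviour with such differences was not tested.

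A library was called growing-hair where the mean log2 level of 23 hair shaft and inner root sheath genes exceeded 8, and male where Ddx3y exceeded 500 normalized counts. The 9 factors, the gene lists, the hair state limit and the covariates were chosen with earlier results of these data known. All 9 factors were named in each comparison. Of each list of transcription factors, targets or differentiation markers, genes past the threshold were named, otherwise genes of the smallest p. Results that need 2 of the list genes are not reported here. Figures were drawn with matplotlib 3.10.9.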

Additional observations from a re-analysis of the deposited data

Results flagged for a closer look

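Each factor was checked in each group of 6 for a library far from the others, by the gap to its nearest neighbour over the range of the group. Of 27 such checks 3 passed the 95% limit of Dixon's test, which chance passes about 1 time in 20. WT 4 read 5546 normalized counts of Grhl1 and 1720 of Grhl2, each the highest of the WT group. C-IKKα 14 read 2219 normalized counts of Tfap2a, the highest of the C-IKKα group. Both are growing-hair libraries from mice that read as female.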

How the results depend on the processing

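No factor passed the threshold in any of the 3 comparisons under any of 34 settings, and the lowest adjusted p of any factor and setting was 0.192 (limma, edgeR or DESeq2). Of 891 log2 fold changes recomputed, 834 kept their sign and 57 did not, 27 of these with 1 library left out; the largest of the 57 was 0.23, and the cause was not tested. No paired analysis was possible because the groups share no replicate numbers. In C-IKKα against WT, Tfap2a turned to 0.0031 with TMM scaling, 0.036 with quantile scaling, 0.14 with array weights, 0.15 with a sex covariate, 0.11 with a hair shaft covariate, 0.10 with both covariates and 0.23 without growing-hair libraries. Klf4 turned to 0.061 with quantile scaling, Grhl1 to 0.025 without growing-hair libraries and Grhl2 to 0.0010 with the sex covariate. Grhl3 turned to -0.0007 with array weights, -0.062 with the sex covariate, -0.0089 with the hair shaft covariate and -0.064 with both. In N-IKKα against WT, Grhl3 turned to -0.0040 with quantile scaling, -0.033 with array weights and -0.0045 with both covariates, and without growing-hair libraries Trp63 turned to -0.0040 and Grhl2 to -0.018. In N-IKKα against C-IKKα, Grhl3 turned to -0.0069 with quantile scaling and -0.033 with array weights. Klf4 turned to 0.073 with the sex covariate, 0.016 with the hair shaft covariate, 0.098 with both and 0.11 without growing-hair libraries. Cebpb turned to -0.10 with the hair shaft covariate, -0.053 with both and -0.13 without growing-hair libraries, where Tfap2a turned to -0.067 and Grhl2 to -0.0072. With each library left out in turn, C-IKKα against WT ran from -0.12 to 0.074 for Klf4, -0.12 to 0.026 for Grhl2, -0.070 to 0.049 for Grhl3, -0.10 to 0.17 for Tfap2a and -0.034 to 0.35 for Cebpb. N-IKKα against WT ran from -0.080 to 0.062 for Grhl3 and -0.14 to 0.019 for Cebpa, and N-IKKα against C-IKKα from -0.081 to 0.061 for Grhl3.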
